A study of Mus musculus with 5 samples.

Results

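Cytosolic ribosomal proteins are the protein parts of the large and small ribosomal subunits that translate nuclear-encoded mRNA. Most of their mRNAs belong to the terminal oligopyrimidine class, whose transcripts begin with a C and a run of pyrimidines and whose translation is controlled by mTORC1 through Larp1. Naive T cells are small and resting, and activated T cells build more ribosomes as they grow. A probe set counted as a member when its single gene symbol was Rpl or Rps with a number, with or without a final a, x, l or l1, or was Rplp0, Rplp1, Rplp2 or Rpsa. Where a gene had several probe sets, the one with the highest mean signal over all arrays was kept. This gave 48 of the 18193 genes measured, 26 of the large and 22 of the small subunit.

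The study profiled CD4+ T cells of a transfer colitis model on Affymetrix mouse arrays. CD45RBhigh CD4+ T cells of BALB/c mice were given to Rag1-/- mice, which have no T or B cells of their own. CXCR6+ and CXCR6- CD4+ T cells were then sorted from the inflamed colonic lamina propria (LP), with 2 arrays each, named as biological replicates. Naive CD45RBhigh CD4+ T cells of untreated BALB/c mice made up 1 array. All 5 arrays carry BALB/c as the background strain. One label of the naive array gives spleen and another the LP of healthy mice, whereas the methods give spleen. How many mice went into each sample is not given in the sources used here, and the p-values below rest on array-to-array spread that may be partly technical. In such bulk RNA, fewer cells of a type and less RNA per cell cannot be told apart.

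Signals are linear and have a median of 1 on each array. They compare arrays for a given probe set, not genes with each other. The naive array stood apart from the LP arrays. The highest gene signal was 444 to 533 in LP cells and 226 in naive cells. The upper quartile was 8.71 to 10.3 across LP libraries and 15.4 for naive cells. The 6 measured CD4 T cell markers summed to 343 to 538 for LP and 491 for naive cells, with 2 of them, Cd3e and Cd3d, called lower and 4 not called. The Dap spike-in control read 64.6 to 102.0 for LP and 0.194 for naive cells. The ratio of 3' to 5' Gapdh signal, which grows as RNA or its copies shorten, was 2.81 to 6.96 for LP and 1.51 for naive cells. Summed signals of 5 stromal markers, 4 of which were called higher, were 90.3 to 147 for LP and 8.35 for naive cells. The 5 myeloid markers, 3 of them called higher, summed to 244 to 314 for LP and 85.3 for naive cells. The 3 B cell markers, all called lower, summed to 0.92 to 1.25 for LP and 46.1 for naive cells. No marker of these lists was at 0, and the part of any of these differences in the results below was not tested. With 1 naive array, the tissue, the colitis, the cell isolation and the array itself cannot be told apart in any comparison with naive cells.

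The start sites of the members are shown because the pyrimidine run defines the class to which most of these mRNAs belong. RefSeq listed a start for 42 of the 48 members (build GRCm38.p6). At the listed start, 8 of 42 members (19.0%) had a C followed by at least 4 more pyrimidines, and 2.93% of the 14452 measured genes with a start did. The longest run was taken over all starts listed for a gene. The starts used in these cells were not measured, so a member without a run at the listed start may still begin with one. Below are 15 bases on each side of the start of 4 members described later that hold such a run, and of Rps27l, the paralog of Rps27, which has none at this start. The run is in capitals from the first transcribed base.
Rps18, chr17:33955651-33955680, minus strand: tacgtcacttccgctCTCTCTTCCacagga
Rplp2, chr7:141447636-141447665, plus strand: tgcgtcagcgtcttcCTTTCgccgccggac
Rpl14, chr9:120571502-120571531, plus strand: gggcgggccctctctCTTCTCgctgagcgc
Rps27, chr3:90213634-90213663, minus strand: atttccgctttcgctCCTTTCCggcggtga
Rps27l, chr9:66946071-66946100, plus strand: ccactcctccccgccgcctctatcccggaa
The runs of these 4 members were 9, 5, 6 and 7 bases long in the order printed. Rps18 and Rplp2 read higher in LP cells on the deposited scale, though not after cyclic loess. Rpl14 and Rps27 read lower by dim probe sets, of which Rps27 was not called after quantile normalization (limma adjusted p = 0.137), and brighter probe sets shared with other symbols read higher for both. In the 300 bases around the start, AAGATGG, letters of the YY1 motif, was found on either strand in 8 of 42 members (19.0%) and in 7.54% of the measured genes. GGAAG, the core bound by GABP and other Ets factors, was found in 38 of 42 members (90.5%) and in 76.5% of the measured genes. GGGCGG was found in 57.1% of these members and 57.3% of the measured genes, and CACGTG in 9.52% and 10.2%. For TATAA the shares were 33.3% and 20.4%. These matches describe letters only.

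In LP cells against naive cells, 12 members were higher and 8 were lower on the deposited scale, and 28 did not pass the test. A gene was called when its limma adjusted p was under 0.05 over all 18193 genes. Of all genes, 15.1% were called higher and 18.8% lower. The median log2 difference (LP minus naive) was 0.74 over the members and -0.14 over all genes. All 4 LP arrays were above the naive array for 31 members, below it for 12, and on both sides of it for 5. Over all genes these shares were 35.0% above and 40.9% below. The direction of the family as a whole rested on the scaling. After quantile normalization, which gives every array the same distribution of signals, 3 members were called higher and 9 lower, while 15.4% of all genes were called higher and 11.9% lower. The members' median was then -0.25, and 18 of 48 members had a value above 0. Cyclic loess gave a median of -0.59, and scaling to the 500 brightest other genes gave -0.10. With median-centred gene signals it was 1.29, where the median of all genes moved to 0.41. The count of calls also rested on the number of arrays. Leaving out any 1 LP array lowers the residual degrees of freedom of the fit below 2, and fewer members and fewer of all genes were then called. The members' median was 0.75 without CXCR6+ replicate 1 and 0.73 without CXCR6+ replicate 2. It was 0.66 without CXCR6- replicate 1 and 0.79 without CXCR6- replicate 2.

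**Figure D1:**
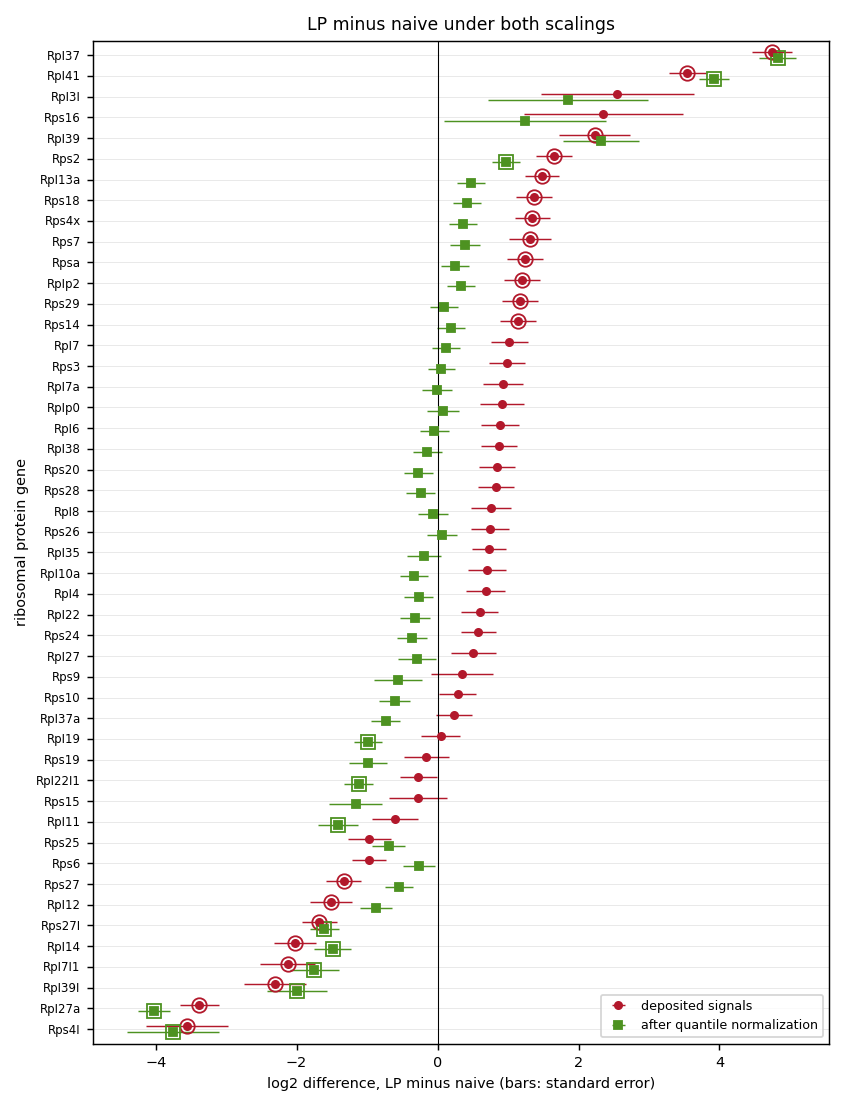
Log2 difference (LP minus naive) of each of the 48 members on the x axis, with its standard error, for the deposited signals (circles) and after quantile normalization (squares); open outlines mark values with an adjusted p under 0.05. On the deposited scale 34 of 48 members lie right of 0, and after quantile normalization 30 of 48 lie left of it, while Rpl37 and Rpl41 stay far right and Rpl27a and Rps4l far left under both.

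Bright and dim members differed in direction on the deposited scale. Brightness was the mean over the same 5 arrays, most of them LP, so the split was not independent of the LP minus naive difference. Rpl27a, at 178 on the naive array, fell among the dim members, and Rpl41, at 20.2 there, among the bright ones. The 34 members with a mean signal over 100 had a median signal of 300 and 333 in CXCR6+ cells, 302 and 250 in CXCR6- cells, and 167 in naive cells. The median of the 500 brightest other genes was 149 and 170 in CXCR6+ cells, 141 and 134 in CXCR6- cells, and 82.6 in naive cells. The members' median over that of the other bright genes was 1.87 to 2.14 in LP cells and 2.03 in naive cells, so the naive ratio lay within the LP range. By rank, 21 to 25 members were among the 100 brightest genes of an LP array and 32 among those of the naive array. Of the bright members, 10 were called higher on the deposited scale and 24 were not called, and 27 had all LP arrays above naive. Of the 14 members with a mean signal under 100, 2 were called higher and 8 lower. The median log2 difference was 0.83 for the bright and -1.42 for the dim members on the deposited scale. After quantile normalization it was -0.10 and -0.79, so both lay below 0. The shares of calls among all genes of like brightness are not given here.

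**Figure D2:**
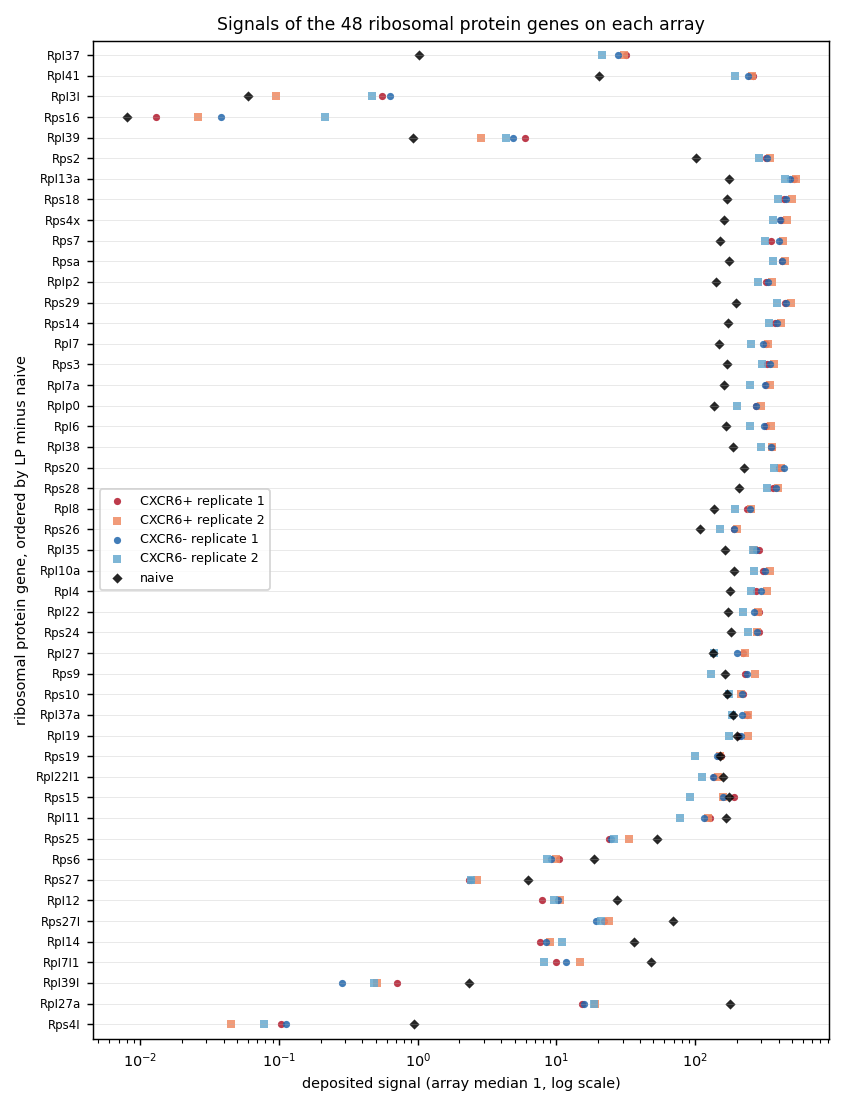
Deposited signal of each member on the 5 arrays (x axis, log scale; array median 1), with members ordered by their LP minus naive difference. For 27 of the 34 bright members the naive array sits left of all LP arrays, and for the 14 dim members it sits left in 4 and right in 10.

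Of the 12 members called higher, Rpl37 and Rpl41 were called in the same direction under each of the 4 other scalings, and Rpl39 and Rps2 kept a value above 0 under each of them. Rpl37, a small zinc-binding protein of the large subunit, had signals of 31.7 and 30.6 in CXCR6+ cells, 28.0 and 21.4 in CXCR6- cells, and 1.02 in naive cells. All LP arrays were above the naive one, with a log2 difference of 4.75 ± 0.28 (SE; limma adjusted p = 0.0119). Rpl41, among the shortest of eukaryotic proteins, had signals of 261 and 257 in CXCR6+ cells, 239 and 194 in CXCR6- cells, and 20.2 in naive cells. Its log2 difference was 3.54 ± 0.27 (SE; limma adjusted p = 0.0119), again with no overlap. Rps2, which lies at the mRNA entry of the small subunit, had signals of 326 and 349 in CXCR6+ cells, 329 and 287 in CXCR6- cells, and 102 in naive cells. Its log2 difference was 1.65 ± 0.25 (SE; limma adjusted p = 0.022), and 0.97 ± 0.20 after quantile normalization (adjusted p = 0.047). Rpl39, which lines the exit tunnel, read 5.96 and 2.87 in CXCR6+ cells, 4.83 and 4.31 in CXCR6- cells, and 0.928 in naive cells. The log2 difference of Rpl39 was 2.23 ± 0.50 (SE; adjusted p = 0.0434), and its limma adjusted p was 0.0583 after quantile normalization.

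The other 8 members called higher were bright and had log2 differences of 1.14 to 1.48 on the deposited scale, none of which was called after quantile normalization and all of which were below 0 after cyclic loess. Rpl13a, which in human cells also takes part in the GAIT silencing complex, had signals of 519 and 533 in CXCR6+ cells, 480 and 444 in CXCR6- cells, and 176 in naive cells. The log2 difference of Rpl13a, 1.48 ± 0.24 (SE; adjusted p = 0.0241), became 0.48 after quantile normalization (adjusted p = 0.165). Rpsa, which is also known as the laminin receptor precursor, had signals of 426 and 446 in CXCR6+ cells, 425 and 365 in CXCR6- cells, and 176 in naive cells. Rplp2, an acidic protein of the stalk that recruits elongation factors, had signals of 325 and 357 in CXCR6+ cells, 336 and 283 in CXCR6- cells, and 141 in naive cells. The LP arrays lay above the naive array for both genes, whose log2 differences were 1.24 and 1.20. Rps18, Rps4x, Rps7, Rps29 and Rps14, all of the small subunit, made up the rest. Rps18, part of the head of that subunit, had signals of 435 and 497 in CXCR6+ cells, 451 and 394 in CXCR6- cells, and 171 in naive cells. The other 4 had log2 differences of 1.35, 1.32, 1.16 and 1.14, each with all LP arrays above the naive array. Rplp0, the base of the same stalk, had a log2 difference of 0.91 that did not pass the test (adjusted p = 0.0972).

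The 8 members called lower all had values below 0 under each of the 4 other scalings, and Rpl14, Rpl27a, Rps27l and Rps4l were called under each. Paralogs with an l or l1 symbol made up 4 of the 8. Rps27l, a p53 target and paralog of Rps27, had signals of 21.9 and 23.8 in CXCR6+ cells, 19.4 and 21.0 in CXCR6- cells, and 68.8 in naive cells. Its log2 difference was -1.68 ± 0.24 (SE; limma adjusted p = 0.0206), and its further 2 probe sets gave -2.61 and -1.69. Rpl7l1, a paralog of Rpl7, had signals of 9.98 and 14.7 in CXCR6+ cells, 11.8 and 8.13 in CXCR6- cells, and 47.7 in naive cells, a log2 difference of -2.13 ± 0.40 (SE; adjusted p = 0.0305). Its further probe sets gave -0.47 and -1.43, so all 3 probe sets of each of these paralogs had the LP arrays below the naive array. Rpl39l, a paralog known from testis, and Rps4l were dim. Rpl39l had signals of 0.715 and 0.506 in CXCR6+ cells, 0.287 and 0.484 in CXCR6- cells, and 2.34 in naive cells (log2 difference -2.30, adjusted p = 0.032). Rps4l read 0.103 and 0.045 in CXCR6+ cells, 0.112 and 0.078 in CXCR6- cells, and 0.937 in naive cells (log2 difference -3.55, adjusted p = 0.0249), all below the median of the array.

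Of the paralogs that did not pass on the deposited scale, Rpl22l1, which can replace Rpl22 and acts in T cell development, had signals of 136 and 145 in CXCR6+ cells, 135 and 112 in CXCR6- cells, and 159 in naive cells. Every LP array was below the naive array, with a log2 difference of -0.27 ± 0.26 (SE; limma adjusted p = 0.464), and of -1.12 ± 0.21 after quantile normalization (adjusted p = 0.0403). Rpl22 itself had a log2 difference of 0.60 by its chosen probe set (limma adjusted p = 0.156), and of -0.32 after quantile normalization. Its further probe sets gave -1.57 and -0.36, each with all LP arrays below the naive array, so its direction was not shared by them. Rpl3l, the striated muscle paralog of Rpl3, was at 0.631 or below on every array and did not pass (adjusted p = 0.152).

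Several dim calls were not shared by other probe sets of the same gene. The array holds 56 further probe sets with a member's symbol alone and 110 that list a ribosomal protein symbol among several, often beside pseudogenes, to which no gene can be assigned. Of the 56 further probe sets, 27 had a log2 difference of the opposite sign to the chosen one. All LP arrays were above the naive array for 19 of the 56 and below it for 31, with a median log2 difference of -0.52. Keeping the highest mean over arrays that were mostly LP could favour probe sets that read high in LP cells. Of the 71 shared probe sets with a mean signal over 100, 60 had all LP arrays above the naive array and 3 had all below. Their median log2 difference was 0.80. Of the 39 shared probe sets with a mean signal under 100, 10 had all LP arrays above and 23 all below, with a median of -0.51. Rpl27a, whose chosen probe set had signals of 15.4 and 18.9 in CXCR6+ cells, 15.8 and 18.7 in CXCR6- cells, and 178 in naive cells, had a log2 difference of -3.38 ± 0.28 (SE; limma adjusted p = 0.0121). The brightest shared probe set that lists Rpl27a had signals of 307 and 325 in CXCR6+ cells, 311 and 249 in CXCR6- cells, and 182 in naive cells, a log2 difference of 0.70. Rpl14, Rpl12 and Rps27 were likewise called lower by their own probe sets, at -2.02, -1.51 and -1.33, while the brightest shared probe sets gave 1.14, 1.56 and 0.72. For Rpl37 the own probe set gave 4.75 and the brightest shared one 0.47. The further probe sets of Rpl41 gave 0.73, -0.82 and -1.64, and the last of these, the brightest left without the _s_at and _x_at probe sets, was itself called lower (limma adjusted p = 0.0219). Among the other members called higher, Rpl13a, Rps2 and Rpl39 were above 0 by both kinds, at 1.48, 1.65 and 2.23 by their own probe sets and 1.48, 1.10 and 0.58 by the shared ones. Rps7 was at 1.32 by its own and -0.99 by the shared probe set. A further 27 ribosomal protein genes were listed only on shared probe sets, and the brightest of these for each gene had all LP arrays above naive in 23 cases, all below in 2 and both in 2.

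**Figure D3:**
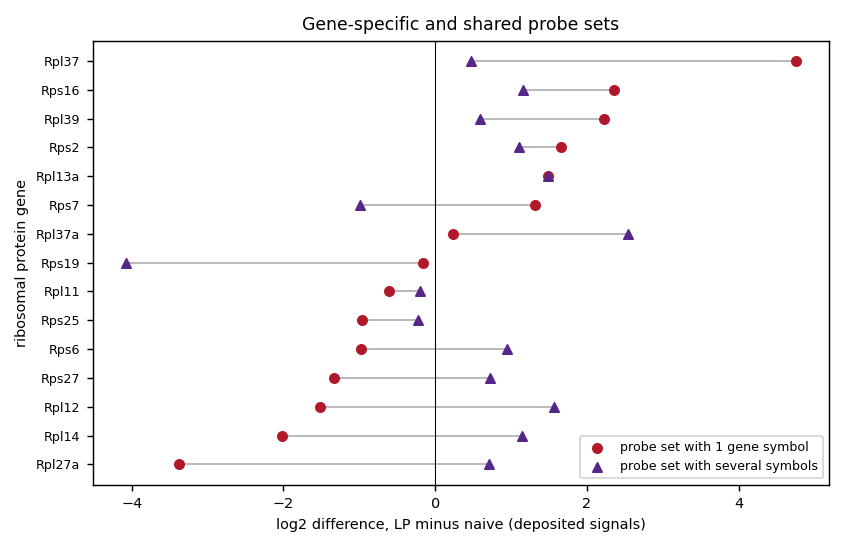
Log2 difference (LP minus naive, deposited signals) of 15 members by their own probe set (circles) and by the brightest probe set that lists their symbol among several (triangles). The own probe sets of Rpl27a, Rpl14, Rpl12, Rps27 and Rps6 lie left of 0 and the shared ones right of 0.

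Rps19, Rpl11, Rpl19 and Rps6 were not called on the deposited scale. Rps19, mutated in Diamond-Blackfan anemia, had signals of 154 and 151 in CXCR6+ cells, 143 and 99.9 in CXCR6- cells, and 151 in naive cells (adjusted p = 0.723). Rpl11, which with Rpl5 binds Mdm2 and so stabilises p53, had signals of 128 and 124 in CXCR6+ cells, 115 and 78.2 in CXCR6- cells, and 166 in naive cells. The LP arrays lay below the naive array for Rpl11, with a log2 difference of -0.60 ± 0.33 (SE; limma adjusted p = 0.232), and of -1.41 after quantile normalization (adjusted p = 0.0461). Rpl19, at the rim of the tunnel exit, had signals of 208 and 239 in CXCR6+ cells, 215 and 175 in CXCR6- cells, and 201 in naive cells. Its probe set ranked 130 to 163 on LP arrays and 4 on the naive array, with log2 differences of 0.04 on the deposited scale and -0.99 after quantile normalization (adjusted p = 0.0474). Rps6, the substrate of S6 kinase, had a log2 difference of -0.98 (limma adjusted p = 0.0517), from a dim probe set with a mean signal of 11.3. The brightest shared probe set that lists Rps6 had a mean signal of 329 and a log2 difference of 0.94.

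Companion genes that act with the ribosome are given beside the shares over all genes, 15.1% called higher and 18.8% lower. Rps3a1, a ribosomal protein whose symbol falls outside the rule, had signals of 375 and 384 in CXCR6+ cells, 382 and 315 in CXCR6- cells, and 149 in naive cells (log2 difference 1.28, limma adjusted p = 0.0359), and was not called after quantile normalization (adjusted p = 0.242). Of 20 measured elongation factors and other transcripts of the oligopyrimidine class, host genes of small nucleolar RNAs included, 5 were higher in LP cells and 2 lower. Their median log2 difference was 0.07. The poly(A)-binding protein Pabpc1 had signals of 236 to 342 on LP arrays and 83.5 on the naive array, a log2 difference of 1.85 (limma adjusted p = 0.022). Snhg12, a host gene of small nucleolar RNAs, read 6.89 to 10.3 in LP cells and 53.5 in naive cells (log2 difference -2.67, adjusted p = 0.0168). Of 15 measured genes of the mTORC1 pathway that controls translation of this class, 1 was higher and 7 lower. Rheb, the GTPase that activates mTORC1, had signals of 127 to 161 on LP arrays and 39.5 on the naive array (log2 difference 1.83, adjusted p = 0.0212). Eif4ebp1 and Eif4ebp2, which hold back cap-dependent initiation, were lower by log2 differences of -2.61 and -2.37 (adjusted p = 0.0148 and 0.0186). Both were called after quantile normalization as well. Larp1 and Rps6kb2 were also called lower, by log2 differences of -1.495 and -1.452 (limma adjusted p = 0.0316 and 0.043). Neither was called after quantile normalization (adjusted p = 0.0553 and 0.151). Of 17 initiation factors, 1 was higher and 3 lower, and Eif4g2 read 205 to 260 on LP arrays against 56.1 on the naive array. Of 11 chaperones and importers of ribosomal proteins, 3 were lower and 8 did not pass, and of 6 rescue factors 3 were lower and 3 did not pass. Heatr3 and Grwd1, chaperones of Rpl5 and Rpl3, had log2 differences of -2.12 and -1.96 (adjusted p = 0.0227 and 0.0186), with adjusted p = 0.0552 and 0.047 after quantile normalization. Among the rescue factors Abce1, which splits terminated ribosomes, had signals of 10.7 to 14.1 on LP arrays and 91.8 on the naive array (log2 difference -2.97, adjusted p = 0.0134). Of 9 other abundant transcripts such as Actb, 1 was higher and 1 lower, with a median log2 difference of 0.72, beside 0.74 for the members. After quantile normalization 2 of the oligopyrimidine list were higher and 7 lower, 2 of the mTORC1 list were higher and 3 lower, 2 of the initiation factors were higher and 3 lower, 1 of the chaperones and importers was higher and 1 lower, 2 of the rescue factors were lower and 4 were not called, and the median of the abundant transcripts was -0.14.

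Between CXCR6+ and CXCR6- cells no member passed the test. The sort itself could be read in Cxcr6, with signals of 184 and 225 in CXCR6+ cells and 58.1 and 25.3 in CXCR6- cells (log2 difference 2.41, limma adjusted p = 0.626), which did not overlap. By limma 0 of all genes (0%) and 0 members were called, with 1191 genes and 0 members at an unadjusted p under 0.05. The methods' t-test gave 1 gene and 0 members after adjustment. The log2 difference (CXCR6+ minus CXCR6-) was above 0 for 41 of 48 members, with a median of 0.15 over members and 0.08 over all genes. Both CXCR6+ arrays were above both CXCR6- arrays for 22 members and below them for 1, and for 25.1% and 14.3% of all genes. After quantile normalization, 20 of 48 members were above 0 and their median was -0.025.

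CXCR6- replicate 2 was the lowest LP array for 37 of 48 members, including all 34 bright ones, and for 29.0% of all genes. Its ratio of 3' to 5' Gapdh signal was the highest of the 5 arrays, at 6.96, and the part of this in the result was not tested. Without this array the members' median difference was 0.045 and 38 of 48 members were above 0. Over all genes the median was then 0.089, with 58.1% above 0. Rps15, a small-subunit protein, had signals of 191 and 158 in CXCR6+ cells and 158 and 91.8 in CXCR6- cells, a log2 difference of 0.53 ± 0.37 (SE). Rpl27 had signals of 222 and 228 in CXCR6+ cells and 199 and 136 in CXCR6- cells, a log2 difference of 0.45 ± 0.29 (SE). In both genes CXCR6- replicate 2 alone lay well below the rest. Rpl11, Rps19 and Rpl37 had log2 differences of 0.41, 0.35 and 0.35 with the same array lowest. Rpl39l, at 0.69 ± 0.39 (SE), and Rps16, at -2.30 ± 1.01 (SE), had the largest values with arrays that did not overlap, both from probe sets with signals under 1 on LP arrays. The brightest shared probe set that lists Rps16, with a mean signal of 319, gave 0.11 with overlapping arrays. The lowest adjusted p of any member was 0.767.

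**Figure D4:**
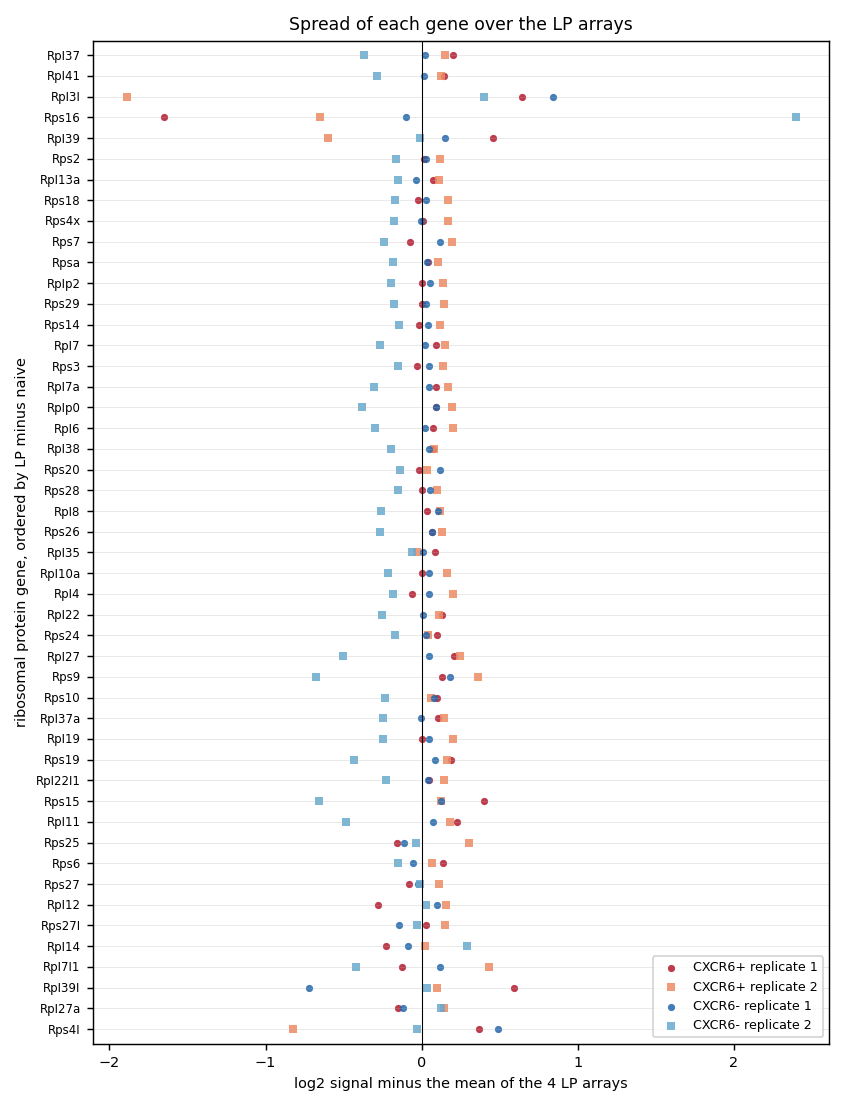
Log2 signal of each member on the 4 LP arrays minus its mean over them (x axis), CXCR6+ arrays in red and orange and CXCR6- arrays in blue shades. CXCR6- replicate 2 lies leftmost for all 34 bright members, and the widest spreads belong to Rps16 and Rpl3l, whose signals were below 1.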

How the data were processed

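The authors hybridised RNA of 5 samples to Affymetrix arrays and processed them in GeneSpring per the methods, with RMA per the submitters' processing notes. The deposited intensity values are linear and scaled to a median of 1 per array. RMA normally includes quantile normalization and gives log2 values, whereas these are linear and their distributions differ between arrays, so which steps were applied is unknown. Background correction is not given in the sources used here. Of 45101 probe sets, 34958 had 1 symbol, 932 several and 9211 none. Of those with 1 symbol, 34754 matched RefSeq (GRCm38.p6). The brightest probe set per gene was kept. Zeros (2) were set to 0.001. Log2 values were fitted with limma 3.58.1 in R 4.3.3, with 3 groups and 2 residual degrees of freedom, so that the spread of the lone naive sample was taken from the LP samples, and p-values were adjusted by Benjamini-Hochberg over 18193 genes. On simulated data with few changed genes the fit recovered the size of the changes on average, but no changed gene passed after adjustment, in either comparison. Named genes were the members with the largest differences, those not overlapping between subsets, a list of members by role, and leading genes of companion lists. The members and lists were chosen with earlier results of these data known. Arrays carry no depth, and their number limits the precision. The alternatives were other scalings, probe choices, filters and tests, and leaving out each LP array.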

Additional observations from a re-analysis of the deposited data

Results flagged for a closer look

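On the deposited scale, Rps19 was the only member with both CXCR6+ arrays on one side of the naive array and both CXCR6- arrays on the other. The share of all genes with this pattern is not given here. The CXCR6+ mean lay only 0.014 above the naive array in log2, and CXCR6+ replicate 2 equalled it at the digits printed. After quantile normalization the log2 difference of Rps19 (LP minus naive) was -0.99. Its signals were 154 and 151 in CXCR6+ cells, 143 and 99.9 in CXCR6- cells, and 151 in naive cells, with a log2 difference between the subsets of 0.35. The difference of the 2 effects was not tested apart from the comparison of the subsets, which did not pass.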

How the results depend on the processing

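The members' counts and medians in LP against naive cells changed with the scaling, and the causes were not tested. Quantile normalization gave 3 members higher, 9 lower and a median log2 difference of -0.25, and cyclic loess 3, 9 and -0.59. The 500 brightest other genes as the scale gave 2 higher, 12 lower and -0.10. Of all 18193 genes, 2806, 2834 and 1601 were then higher and 2171, 2538 and 6727 lower, in that order. Median-centred genes gave 27 higher, 4 lower and a median of 1.29, with 4331 of all genes higher and 2189 lower. Averaging probe sets gave 7 higher, 6 lower and a median of 0.17, with 1988 of all genes higher and 2578 lower. Leaving out _s_at and _x_at probe sets, which left 43 members, gave 5 higher, 12 lower and 0.29. Of the 17903 genes then left, 2576 were higher and 3333 lower. The 40th percentile filter called 25 members higher and 8 lower, with 2480 of 10916 genes higher and 4308 lower. A variance trend with a robust fit called 27 members higher and 10 lower, with 3545 of all genes higher and 4757 lower. Log2 of the signal plus 1 also called 27 higher and 10 lower, with 2817 of all genes higher and 5086 lower. Leaving out 1 LP array left the members' median at 0.66 to 0.79, with fewer members called. A replicate block called 2 members higher and 3 lower, with 1705 of all genes higher and 1807 lower. It was fitted as a fixed term, chosen after seeing the data because a random block could not be estimated with 5 arrays. The labels do not say that replicate numbers pair the samples. Differences between replicates 1 and 2 correlated between the subsets at 0.0193 over all genes and 0.3 over the members, and some markers followed the number, such as Jchain, at 73.3 and 2.21 in CXCR6+ cells and 121 and 6.38 in CXCR6- cells. For CXCR6+ against CXCR6- cells the replicate block called 0 members, with 1 at an unadjusted limma p under 0.05, and the members' median was -0.025 after quantile normalization, -0.073 after cyclic loess and -0.054 with the brightest genes as the scale. Of named members higher in LP cells, cyclic loess turned Rpl13a to -0.19, Rplp2 to -0.20, Rps14 to -0.38, Rps18 to -0.24, Rps29 to -0.46, Rps4x to -0.21, Rps7 to -0.17 and Rpsa to -0.34. Averaging probe sets turned Rps18 to -0.91, Rps4x to -0.80 and Rpsa to -0.27, and leaving out _s_at and _x_at probe sets turned Rpl41 to -1.64. With 1 naive array, its own spread was not measured.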
